A study of Mus musculus with 9 samples.

Results

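The genes described here are 10 genes of de novo lipogenesis, taken by name from the deposited gene count table. They are Srebf1, Fasn, Acaca, Acacb, Acly, Scd1, Scd2, Elovl6, Me1 and Thrsp. The table lists 56941 Ensembl gene IDs, of which 18548 had enough reads to be tested, and all 10 lipogenesis genes were among those tested. The choice is a list of names, with no threshold on their values, and it was made with earlier results of these data known.

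Poly(A) RNA of pancreatic islets from wild-type (WT) male C57BL/6J mice was sequenced after 9 months on 1 of 3 diets begun at 15 weeks of age. The control diet, low in fat (LFD, 10% fat), gave 3 libraries. The high fat diet (HFD, 60% fat) gave 2 libraries, and the ketogenic diet (KD, 89.9% fat) gave 4 libraries. No transgene, deletion or drug is named for any group, so diet is the only stated difference. The study asked how a ketogenic diet changes gene expression in islets. The labels do not say whether each library came from 1 mouse or a pool, so p-values measure the spread between these libraries only, and a shared handling day of a diet cannot be told apart from the diet.

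De novo lipogenesis builds fatty acids chiefly from the carbon of carbohydrate. Citrate made in the mitochondrion is exported to the cytosol and split into acetyl-CoA, acetyl-CoA is carboxylated to malonyl-CoA, and fatty acid synthase strings the units into palmitate, which is then lengthened and desaturated. Transcription of the pathway is driven by SREBP-1, the product of Srebf1, and by the carbohydrate-sensing factor ChREBP. In beta cells, which secrete insulin, malonyl-CoA is also known as an inhibitor of the entry of fatty acids into mitochondria.

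The promoters of 3 members are printed here because the results turn on them: Acacb was the member with the widest range over libraries, Fasn had separate KD and LFD libraries, and Acly passed the test once acinar content was in the model. Each is the 250 bases before the first RefSeq start site, read 5′ to 3′ on the gene's strand, build GRCm38.p6. Fasn lies at chr11:120824548-120824797 on the minus strand, Acacb at chr5:114165268-114165517 on the plus strand and Acly at chr11:100528001-100528250 on the minus strand. Capitals mark CCAAT on either strand (ATTGG on the other) in the first and second, and the GC box GGGCGG on either strand (CCGCCC on the other) in the Acly promoter. In Fasn, one CCAAT and one ATTGG overlap.
Fasn: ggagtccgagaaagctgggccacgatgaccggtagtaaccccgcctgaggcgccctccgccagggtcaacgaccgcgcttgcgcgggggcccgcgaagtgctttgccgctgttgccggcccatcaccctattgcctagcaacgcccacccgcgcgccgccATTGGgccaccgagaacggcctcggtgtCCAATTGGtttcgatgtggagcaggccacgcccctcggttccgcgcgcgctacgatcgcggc
Acacb: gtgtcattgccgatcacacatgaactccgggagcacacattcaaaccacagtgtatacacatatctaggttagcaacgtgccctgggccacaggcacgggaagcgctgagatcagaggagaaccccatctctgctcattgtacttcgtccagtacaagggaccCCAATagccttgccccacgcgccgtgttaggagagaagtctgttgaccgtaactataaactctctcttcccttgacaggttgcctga
Acly: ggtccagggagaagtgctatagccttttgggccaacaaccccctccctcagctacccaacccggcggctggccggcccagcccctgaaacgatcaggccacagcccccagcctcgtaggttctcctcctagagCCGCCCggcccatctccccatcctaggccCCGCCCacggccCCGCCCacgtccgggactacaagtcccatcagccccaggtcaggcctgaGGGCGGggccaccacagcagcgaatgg

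RefSeq held a promoter for 8 of the 10 members, with 11 start sites in all. A CCAAT was found in 6 of these 11 promoters and GGGCGG in 4, beside 33.85% and 32.74% of all 32851 promoters of the same length. Several of the 11 belong to the same gene. The Fasn promoter held 3 CCAAT matches, with first bases 90, 62 and 59 bases upstream of the start, and the Acacb promoter held 1, at 87 bases. The Acly promoter held 4 GGGCGG matches, at 117, 88, 76 and 27 bases. None of the 11 held the sterol response element TCACNCCAC, which 1.053% of all promoters held, or the E-box CACGTG, which 6.021% held. These are matches of letters in short windows, not measured binding sites.

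Library totals ran from 15513502 to 26588390 counts. The tissue was not islet cells alone. The 22 fixed markers of acinar cells, which make digestive enzymes, took 14.9% to 35.2% of all counts in the LFD libraries, 11.2% to 18.8% in HFD and 20.3% to 60.2% in KD, and none of the 22 was at 0. The 10 beta cell markers took 1.68% to 12.9% over all libraries, again with none at 0. The 95% Wilson half-width was at most 0.0238 percentage points for either share, which covers counting error only. For adipocytes, which are rich in lipogenic enzymes, 5 of 13 fixed markers passed the filter, the summed level was 48.9 to 66.2 CPM (counts scaled to library size) and Adipoq had 16 reads in all 9 libraries together, 10 of them in LFD replicate 2. Ucp1 had none. In bulk tissue, fewer cells of a type and less RNA per cell cannot be told apart.

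Across the pathway, no member passed the test in any diet comparison. Levels are given in CPM scaled by TMM, and the test was edgeR's quasi-likelihood test on the counts with Benjamini-Hochberg adjustment over all 18548 genes, at 0.05. In KD against LFD 0 of 10 passed, where 4.12% of all tested genes did. DESeq2 passed 2 members (9.56% of all genes) and limma-voom passed 1 (10.1%). At an unadjusted p below 0.05 the count was 3 of 10 against 22.7% of all genes, and for 2 of 10 the KD and LFD libraries did not overlap, against 19.7%. In HFD against LFD 0 of 10 passed where 0% of all genes did, and DESeq2 and limma-voom also passed 0 members, beside 1.44% and 0.0593% of all genes. There 2 of 10 had an unadjusted p below 0.05 against 9.99% of genes, and 1 of 10 did not overlap against 27.5%. In KD against HFD 0 of 10 passed where 0% of all genes did, with 2 passed by DESeq2 (8.18% of all genes) and 0 by limma-voom (0%). There 4 of 10 had an unadjusted p below 0.05 against 22.7% of genes, and 5 of 10 did not overlap against 33.9%. The median log2 fold change of the members was 0.00 in KD against LFD, 5 of 10 being above 0, beside a median of -0.02 over all genes. LFD and KD each enter more than one of these comparisons, as does HFD, so the comparisons are not independent.

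**Figure D1:**
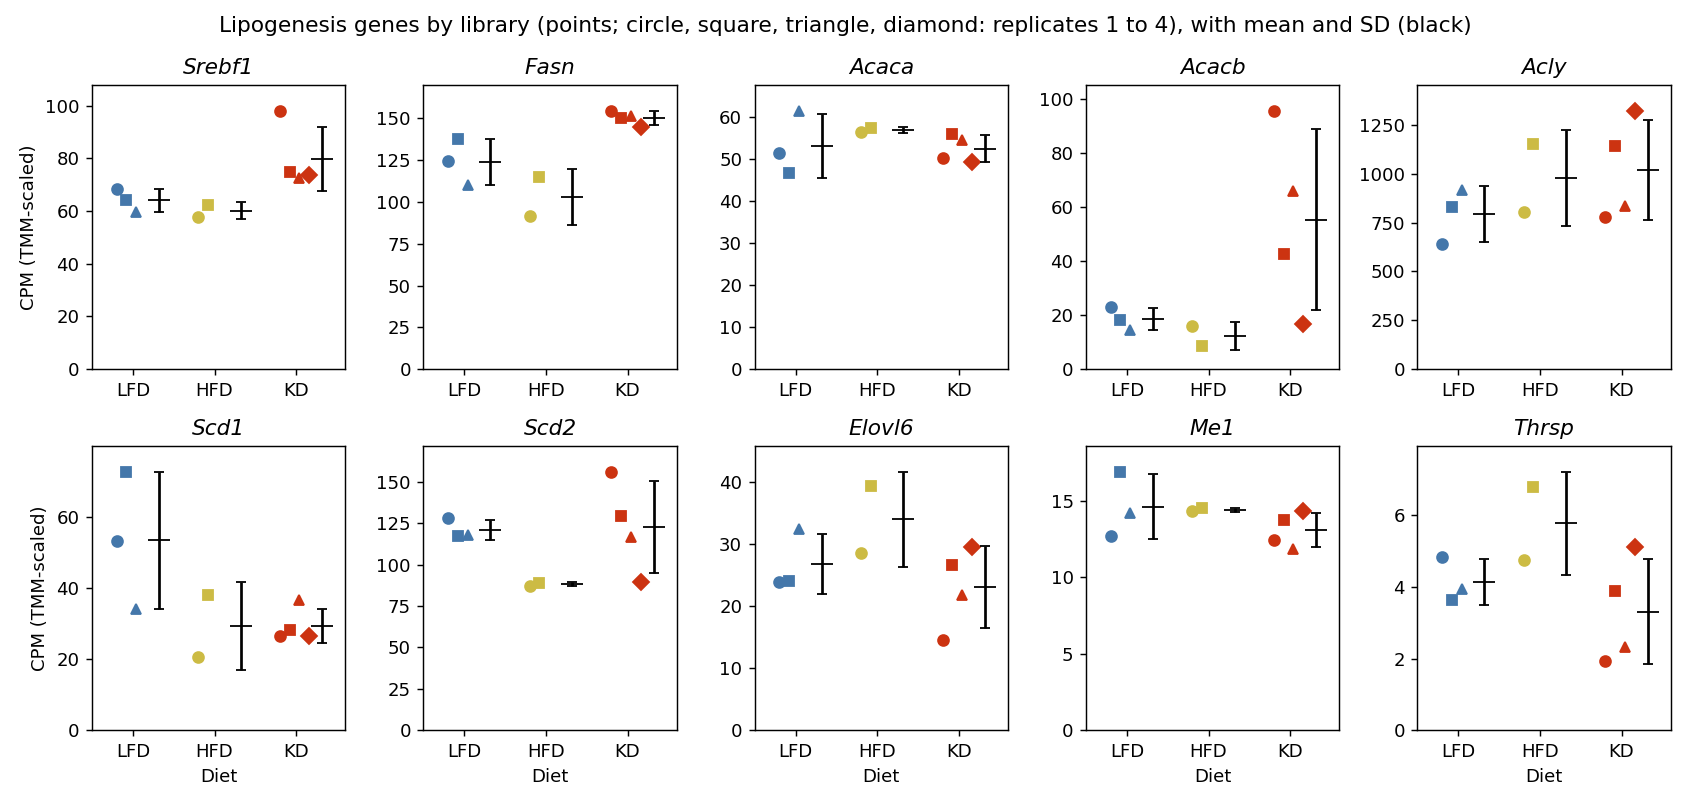
TMM-scaled CPM (y axis, linear from 0) of each lipogenesis gene by diet (x axis), with 1 point per library, shapes for replicates 1 to 4, and the mean with SD in black. The Acacb points of KD run from 16.8 to 95.5, the widest range of any panel relative to its lowest value, while the 4 Fasn points of KD lie between 145 and 155, above all LFD and HFD points.

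Carbon supply was carried by Acly, ATP citrate lyase, which splits exported citrate into acetyl-CoA. Its levels were 639, 828 and 918 CPM in LFD replicates 1 to 3, 806 and 1151 in HFD replicates 1 and 2, and 780, 1142, 834 and 1322 in KD replicates 1 to 4. Every diet had libraries both above and below libraries of the others. The mean was 795 ± 142 CPM (SD, n = 3) in LFD, 978 ± 244 (n = 2) in HFD and 1019 ± 257 (n = 4) in KD, and the KD against LFD log2 fold change of 0.36 (SE 0.25) did not pass edgeR's quasi-likelihood test (Benjamini-Hochberg adjusted p = 0.412). With the acinar score of each library as a covariate, the fitted KD against LFD difference in Acly was 0.76 (SE 0.14) and passed (adjusted p = 0.00868, edgeR), in a fit that passed 7.32% of all genes. The acinar score is the mean log2 CPM of the acinar markers.

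Me1, malic enzyme, makes NADPH for the synthase. It read 12.7, 16.9 and 14.2 CPM in LFD, 14.3 and 14.5 in HFD and 12.4, 13.7, 11.8 and 14.3 in KD, and the groups overlapped, with KD replicates 1 and 3 the lowest of all libraries. The KD against LFD log2 fold change was -0.16, with an SE of 0.15 (edgeR adjusted p = 0.579).

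The carboxylases Acaca and Acacb make the same malonyl-CoA at different places, Acaca in the cytosol for synthesis and Acacb at the outer mitochondrial membrane. Acaca was the steadiest member. It read 51.4, 46.6 and 61.4 CPM in LFD, 56.4 and 57.4 in HFD and 50.3, 55.9, 54.4 and 49.2 in KD, a range of 1.32-fold over 9 libraries. Its KD against LFD log2 fold change was -0.02, with an SE of 0.12 (edgeR adjusted p = 0.949).

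Acacb was the most variable. It read 22.9, 18.1 and 14.6 CPM in LFD, 15.9 and 8.67 in HFD and 95.5, 42.5, 66.0 and 16.8 in KD, an 11.0-fold range. KD replicates 1 to 3 lay above every other library, and KD replicate 4 lay inside the LFD range. The mean was 18.6 ± 4.13 CPM in LFD (SD, n = 3) and 55.2 ± 33.5 in KD (n = 4), a fitted log2 fold change of 1.57 (SE 0.53), which did not pass edgeR's quasi-likelihood test (Benjamini-Hochberg adjusted p = 0.127). Leaving out KD replicate 4 gave 1.87 (SE 0.32, adjusted p = 0.0188, edgeR), in a fit that passed 1348 genes, beside 764 on all libraries. DESeq2 on all libraries gave an adjusted p of 0.00875. Against HFD, whose mean was 12.3 ± 5.08 CPM (n = 2), the KD log2 fold change was 2.17, with an SE of 0.64 (edgeR adjusted p = 0.128). With KD replicate 4 left out it was 2.47 (adjusted p = 0.0162), in a fit that passed 1793 genes, beside 0 on all libraries. HFD against LFD it was -0.60 (SE 0.62, adjusted p = 0.752).

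The order of the libraries by Acacb was their order by acinar share, inside each diet as well as between them. Groups of 2 to 4 libraries are too small to test this within a diet. Within LFD it was highest in replicate 1 (acinar share 35.2%), lower in replicate 2 (24.7%) and lowest in replicate 3 (14.9%). Within HFD its higher library had 18.8% and its lower 11.2%, and within KD its order was replicates 1, 3, 2 and 4, at 60.2%, 56.0%, 44.3% and 20.3%. With the acinar score in the fit, the KD against LFD log2 fold change of Acacb was 0.28 (SE 0.20, edgeR adjusted p = 0.457), and KD against HFD it was 0.17 (SE 0.27, adjusted p = 0.848).

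The relation of each member to the acinar score over the 9 libraries was examined after the values had been seen, in a family of 10 relations with exact two-sided permutation p-values adjusted by Benjamini-Hochberg. Acacb had Pearson's r = 0.979 (exact p = 2.76e-06, the smallest the 9 libraries allow, adjusted p = 2.76e-05) and Spearman's rho = 1 (exact p = 5.51e-06). Without the 2 libraries farthest from the median score, KD replicates 1 and 3, r was 0.963. Elovl6 had r = -0.884 (exact adjusted p = 0.00225), rho = -0.933 (exact p = 0.00075) and r = -0.827 without those libraries. Both of these kept a strong relation after the 2 extreme libraries were left out.

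Thrsp had r = -0.857 (exact adjusted p = 0.00926), rho = -0.767 (exact p = 0.0214) and r = -0.566 without the 2 libraries. Srebf1 had r = 0.780 (exact adjusted p = 0.0221), rho = 0.800 (exact p = 0.0138) and r = 0.647 without them. Scd2 had r = 0.760 (exact adjusted p = 0.0404), rho = 0.667 (exact p = 0.0589) and r = 0.720 without them. For the other 5 members the exact adjusted p of r was at least 0.0555, the nearest being Fasn with r = 0.702 and rho = 0.867 (exact p = 0.00451). By rank, Fasn and Scd2 changed sides of 0.05. The exact adjusted p of rho was 0.0150 for Fasn and 0.0841 for Scd2. Acacb, Elovl6, Thrsp, Srebf1 and Scd2 also had an adjusted p below 0.05 for r when the acinar share of counts was used in place of the score. The share of all tested genes with such a relation was not computed. A relation to acinar content is therefore not shown to be particular to these members. Diet and acinar content moved together, with 3 of 4 KD libraries holding the highest scores, and groups of 2 to 4 are too small for a correlation within a diet. The permutations moved libraries across diets, so these p-values do not separate acinar content from diet.

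**Figure D2:**
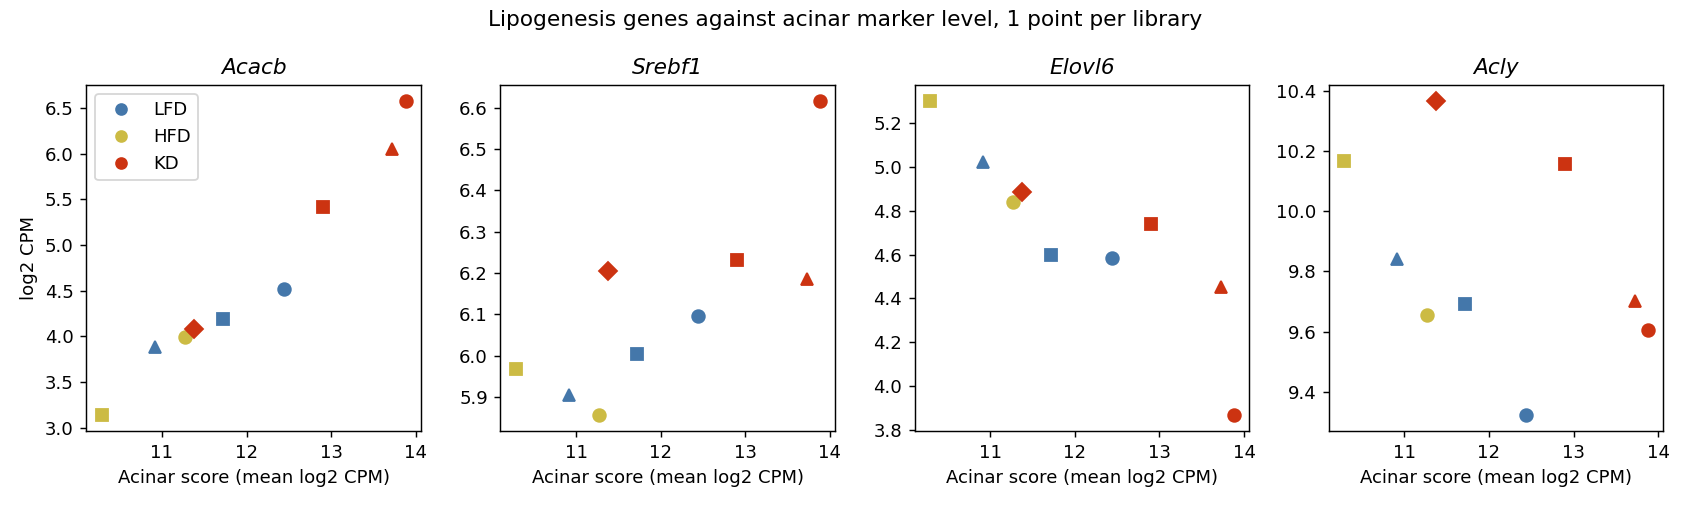
log2 CPM (y axis) of Acacb, Srebf1, Elovl6 and Acly against the acinar score (x axis, mean log2 CPM of acinar markers), 1 point per library, coloured by diet and shaped by replicate. Acacb rises along the score through all 3 diets, KD replicate 4 lying beside the HFD and LFD libraries, and Elovl6 runs the opposite way.

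Fasn, fatty acid synthase, builds palmitate. It read 124, 138 and 110 CPM in LFD, 91.4 and 115 in HFD and 155, 150, 151 and 145 in KD. All 4 KD libraries were above all 5 others, and the KD libraries were close together, with a coefficient of variation of 2.66% against 11.1% in LFD. The KD against LFD log2 fold change was 0.28 (SE 0.13), a 1.21-fold difference of fitted means, and did not pass edgeR's quasi-likelihood test (Benjamini-Hochberg adjusted p = 0.235). KD against HFD it was 0.54 (SE 0.15, adjusted p = 0.124). That value passed with KD replicate 4 left out (0.56, adjusted p = 0.0483, edgeR) and by DESeq2 (adjusted p = 0.0161). It passed in 3 of 18 alternatives, and lay between 0.39 and 0.72 over all of them. KD replicate 4 had the lowest acinar share of the KD libraries, 20.3%. Without KD replicate 4, 1793 of all tested genes passed, beside 0 on all libraries, and DESeq2 passed 8.18% of all genes. The HFD against LFD value of Fasn was -0.27 (SE 0.16, edgeR adjusted p = 0.579).

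Elovl6 lengthens palmitate to stearate. It read 23.9, 24.1 and 32.4 CPM in LFD, 28.6 and 39.4 in HFD and 14.5, 26.6, 21.8 and 29.4 in KD. The lowest library was KD replicate 1, which had the highest acinar share, and the highest was HFD replicate 2, which had the lowest. The KD against LFD log2 fold change of -0.21 (SE 0.23) did not pass (edgeR adjusted p = 0.620), and with the acinar score in the fit it was 0.17.

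The desaturases Scd1 and Scd2 put the first double bond into stearate and palmitate. They belong to a family of similar neighbouring genes, and no source used here says how reads shared between the copies were assigned, which leaves their split uncertain. Scd1 read 53.2, 72.6 and 34.1 CPM in LFD, 20.5 and 38.1 in HFD and 26.5, 28.0, 36.5 and 26.4 in KD. LFD replicates 1 and 2 lay above every other library, and LFD replicate 3 lay inside the range of the other diets.

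Its mean was 53.3 ± 19.2 CPM (SD, n = 3) in LFD, 29.3 ± 12.5 (n = 2) in HFD and 29.3 ± 4.84 (n = 4) in KD. The log2 fold change was -0.86 in KD against LFD (SE 0.27) and -0.86 in HFD against LFD (SE 0.33), and neither passed edgeR's quasi-likelihood test (Benjamini-Hochberg adjusted p = 0.0936 and 0.445). Both share the LFD libraries. KD against LFD, the value changed with the LFD libraries and the call with the tool as well. Without LFD replicate 3 the value was -1.10 (SE 0.24, edgeR adjusted p = 0.0241) and passed. Without LFD replicate 2 it was -0.58 (SE 0.26, edgeR adjusted p = 0.239). DESeq2 (adjusted p = 0.0388) and limma-voom (adjusted p = 0.0252) passed it on all libraries.

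LFD replicates 1 and 2, high in Scd1, were also higher than LFD replicate 3 in lymphocyte genes. Macrophage markers (131, 131 and 71.6 CPM in LFD replicates 1 to 3) and stellate and fibroblast markers (509, 449 and 257) ran the same way. So did acinar (334840, 199158 and 119078), duct (447, 416 and 395), endothelial (364, 297 and 277) and adipocyte markers (53.7, 55.5 and 49.4). Beta cell markers ran the other way, and other endocrine and hepatocyte markers ran neither way. Outside LFD, HFD replicate 2 and KD replicate 3 had the highest Scd1 of their diets (38.1 and 36.5 CPM) but the lowest lymphocyte sums (16.8 and 3.56). Macrophage sums were the higher of the diet in HFD replicate 2 (117) and the lowest of the diet in KD replicate 3 (35.7). The 10 fixed lymphocyte markers summed to 43.1 to 191 CPM in LFD, 16.8 to 22.1 in HFD and 3.56 to 8.02 in KD. LFD replicate 2 was highest and LFD replicate 3 lowest of its diet. In KD against LFD 10 of 10 fell (edgeR, adjusted p below 0.05), where 3.14% of all genes did. The 13 adipocyte markers summed to 49.4 to 55.5 CPM in LFD, 48.9 to 51.6 in HFD and 49.1 to 66.2 in KD. The part of these cells in the Scd1 result was not tested.

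Scd2 read 128, 117 and 118 CPM in LFD, 87.3 and 88.9 in HFD and 156, 129, 117 and 89.4 in KD. Both HFD libraries were below all 7 others, and KD ran from near the HFD level, in replicate 4, to above all LFD libraries, in replicates 1 and 2. HFD against LFD the log2 fold change was -0.46 (SE 0.20) and did not pass (edgeR adjusted p = 0.492), and with the acinar score in the fit it was -0.28. KD against LFD it was 0.02 (SE 0.17, adjusted p = 0.956) and KD against HFD 0.48 (SE 0.19, adjusted p = 0.180). The KD against HFD value was 0.61 without KD replicate 4 and then passed (edgeR adjusted p = 0.0374). That fit passed 1793 genes, beside 0 on all libraries. With the acinar score in the fit the KD against HFD value was 0.04 (SE 0.21, edgeR adjusted p = 0.963).

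Srebf1 encodes SREBP-1, and reads of its 1a and 1c forms are summed in a gene count. It read 68.2, 64.1 and 59.8 CPM in LFD, 57.8 and 62.5 in HFD and 98.0, 75.0, 72.7 and 73.7 in KD. All KD libraries lay above all others, and KD replicate 1 stood apart from the other 3. The mean was 64.0 ± 4.22 CPM (SD, n = 3) in LFD and 79.9 ± 12.2 in KD (n = 4). The KD against LFD log2 fold change of 0.32 (SE 0.14) did not pass edgeR's quasi-likelihood test (Benjamini-Hochberg adjusted p = 0.192), nor did 0.41 (SE 0.16, adjusted p = 0.162) in KD against HFD. Without KD replicate 1 the KD against LFD value was 0.20. With the acinar score in the fit it was 0.21, and KD against HFD it was 0.22.

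Thrsp (Spot 14) is a small nuclear protein induced with lipogenic enzymes. It had the fewest reads of the members, with 25 to 162 counts a library. It read 4.84, 3.63 and 3.94 CPM in LFD, 4.75 and 6.79 in HFD and 1.95, 3.88, 2.32 and 5.11 in KD. KD replicates 1 and 3, the 2 libraries highest in acinar share, were lowest. The KD against LFD log2 fold change was -0.29, with an SE of 0.33 (edgeR adjusted p = 0.640) and KD against HFD it was -0.78 (SE 0.37, adjusted p = 0.231). With the acinar score in the fit these values were 0.05 and -0.06.

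**Figure D3:**
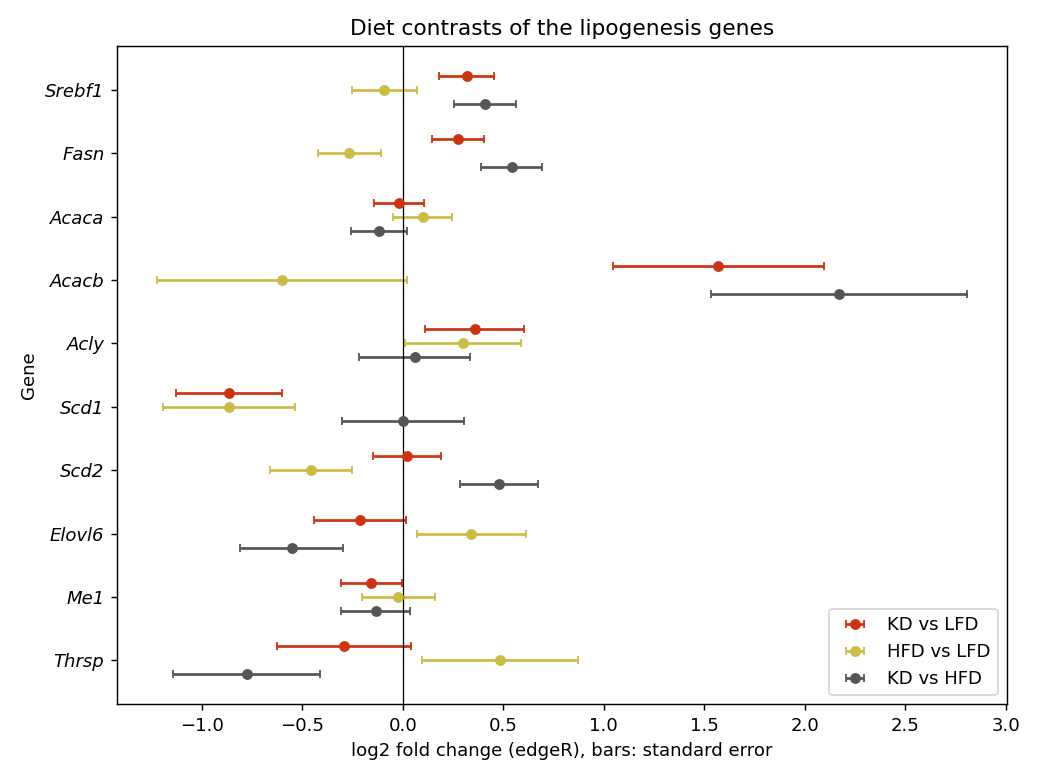
Fitted log2 fold changes (x axis) of each gene (y axis) in the 3 diet comparisons, with the standard error as bars. Acacb in KD against LFD (1.57) and KD against HFD (2.17) stands farthest to the right with the widest bars, and Scd1 lies at -0.86 in KD against LFD and in HFD against LFD.

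Within a library, the ratio of counts of 2 members does not depend on library scaling. The log2 ratio of Acaca to Acacb was 1.17, 1.36 and 2.07 in LFD, 1.83 and 2.72 in HFD and -0.93, 0.39, -0.28 and 1.55 in KD. KD replicates 1 to 3 lay below all others and KD replicate 4 lay inside the LFD range. The KD minus LFD difference of means was -1.35 (two-sided exact permutation p = 0.143 over 35 splits, adjusted p = 0.214 over 3 ratios).

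The log2 ratio of Scd1 to Scd2 was -1.27, -0.69 and -1.79 in LFD, -2.09 and -1.22 in HFD and -2.56, -2.21, -1.67 and -1.76 in KD. The KD minus LFD difference was -0.80 (exact permutation p = 0.143, adjusted p = 0.214) and the groups overlapped. The log2 ratio of Elovl6 to Fasn averaged -2.22 ± 0.40 in LFD (SD, n = 3), -1.61 ± 0.09 in HFD (n = 2) and -2.75 ± 0.49 in KD (n = 4), a KD minus LFD difference of -0.53 (exact permutation p = 0.257, adjusted p = 0.257). The smallest p this design allows is 0.0286.

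**Figure D4:**
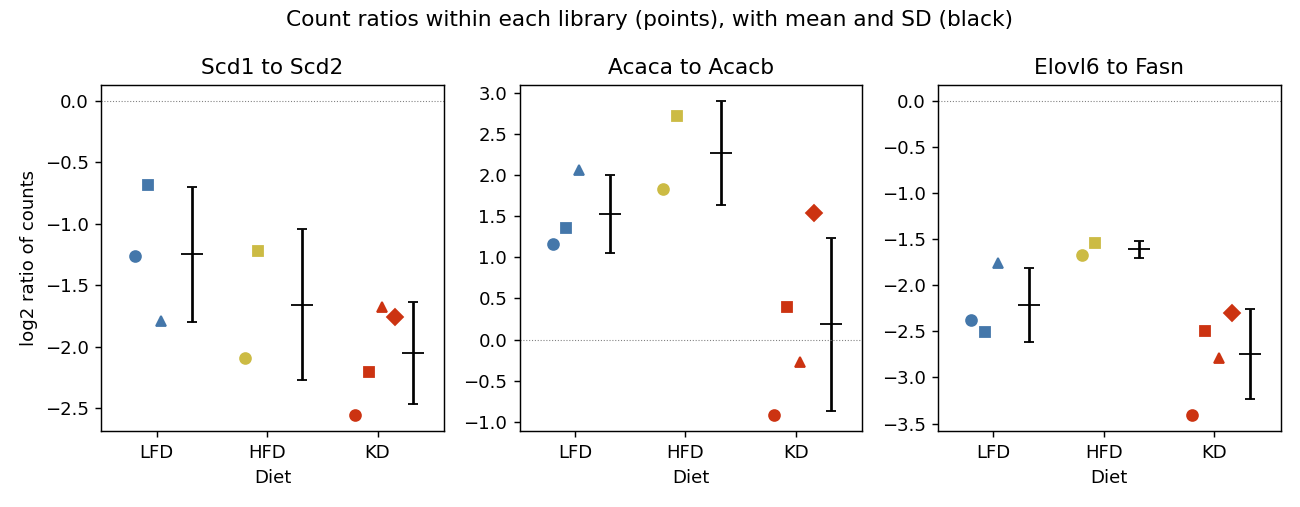
log2 ratio of counts (y axis) of Scd1 to Scd2, Acaca to Acacb and Elovl6 to Fasn by diet (x axis), 1 point per library, with mean and SD in black. In the middle panel KD replicates 1 to 3, between -0.93 and 0.39, lie below all LFD and HFD libraries, whose lowest value is 1.17.

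Set per kilobase of the longest GENCODE transcript, the order of the members in LFD was Acly, Scd2, Srebf1, Fasn, Scd1, Acaca, Elovl6, Me1, Thrsp and Acacb. Acly was at 180 ± 32.1 CPM per kb (SD, n = 3), Scd2 at 22.2 ± 1.11, Srebf1 at 14.9 ± 0.98, Fasn at 12.3 ± 1.37 and Scd1 at 11.0 ± 3.98. Fasn and Scd1 did not differ beyond their SDs. Acaca at 5.58 ± 0.80, Elovl6 at 4.50 ± 0.82 and Me1 at 4.43 ± 0.65 did not differ from each other beyond their SDs. Thrsp at 2.96 ± 0.45 did not differ from Acacb at 2.11 ± 0.47 beyond theirs. In KD Acacb was at 6.28 ± 3.81 (n = 4). Over the 9 libraries Acly stood at the 99.4 percentile of tested genes with a length and Thrsp at the 48.6 percentile.

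The genes around the pathway were read from 7 lists in the same KD against LFD fit. The lists were chosen with earlier results of these data known, so their counts are a description only. Of all genes 0.981% rose and 3.14% fell, and the all-gene median was -0.02. DESeq2 passed 9.56% and limma-voom 10.1% of all genes in either direction, and 22.7% of all genes had an unadjusted p below 0.05. Of 32 regulators, 2 rose and 0 fell, with a median log2 fold change of 0.19. DESeq2 passed 2 higher and 2 lower, and limma-voom 3 higher and 1 lower. Scap, which escorts SREBP to its activating proteases, read 55.4, 58.1 and 55.7 CPM in LFD, 49.3 and 52.3 in HFD and 107, 79.2, 91.2 and 68.9 in KD, and rose by a log2 fold change of 0.62 (SE 0.15, edgeR adjusted p = 0.0438). Usf2, a transcription factor that binds E-boxes, rose by 0.68 (SE 0.16, adjusted p = 0.0423). Each call was lost in 11 of 18 alternative fits, and with the acinar score in the fit the list held 0 called genes.

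Of 21 genes that supply acetyl-CoA and NADPH, 2 rose and 0 fell, with a median of 0.18. DESeq2 passed 4 and limma-voom 3, all higher. Slc25a1, the mitochondrial citrate carrier, feeds Acly. It read 28.1, 26.8 and 25.0 CPM in LFD, 29.7 and 34.4 in HFD and 41.5, 44.3, 41.2 and 42.2 in KD. Each KD library lay above each HFD library, and each HFD library above each LFD library. It rose by 0.67 in KD against LFD (SE 0.11, edgeR adjusted p = 0.0133), a call lost in 2 of 18 alternatives, without LFD replicate 1 or without KD replicate 2 (adjusted p at most 0.0533). Slc25a11, the 2-oxoglutarate carrier, rose by 0.47 (SE 0.12, adjusted p = 0.0465), a call lost in 14 of 18.

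Of 22 cholesterol synthesis genes, which SREBP proteins also drive, 1 rose and 0 fell, with a median of 0.27. DESeq2 passed 2, limma-voom 6 and the edgeR fit with the acinar score 3, all higher. The gene edgeR called was Lss, lanosterol synthase, at 27.5 ± 2.32 CPM in LFD (SD, n = 3) and 39.7 ± 2.42 in KD (n = 4), a rise of 0.53 (SE 0.12, edgeR adjusted p = 0.0374), lost in 6 of 18 alternatives.

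Of 8 carbohydrate-response genes, 0 rose and 2 fell, with a median of -0.20, and DESeq2 and limma-voom each passed 2, both lower. The edgeR fit with the acinar score passed 1 higher and 1 lower. Txnip, an arrestin-like protein induced by glucose, read 768, 613 and 647 CPM in LFD, 467 and 344 in HFD and 452, 402, 312 and 316 in KD, with all KD and HFD libraries below all LFD libraries. Its KD against LFD log2 fold change was -0.87, with an SE of 0.19 (edgeR adjusted p = 0.0299), a call lost in 4 of 18 alternatives. Its paralog Arrdc4 had -0.72 (SE 0.16, adjusted p = 0.0315), lost in 7 of 18, among them the fit with the acinar score, where it was -0.60 (adjusted p = 0.0657). Over all 18 its value lay between -0.79 and -0.60.

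The other 3 lists held no gene past the threshold in edgeR without a covariate. Of 16 tested elongation and desaturation genes 3 had an unadjusted p below 0.05, the median was -0.00, and DESeq2 passed 0. Limma-voom and the edgeR fit with the acinar score each passed 2, both lower. Of 18 triacylglycerol assembly genes 5 had an unadjusted p below 0.05, the median was -0.10, and both other tools passed 0. For these the fit with the acinar score passed 1, higher. Of 10 genes that use or remove malonyl-CoA 4 had an unadjusted p below 0.05, and 9 of 10 had a log2 fold change above 0. The median was 0.39, DESeq2 passed 3, limma-voom 4 and the edgeR fit with the acinar score 0. In HFD against LFD and in KD against HFD none of the 127 tested genes of the 7 lists passed in edgeR. At an unadjusted p below 0.05 there were 12 in HFD against LFD (9.99% of all genes) and 43 in KD against HFD (22.7%). DESeq2 passed 3 and 19 of the 127, beside 1.44% and 8.18% of all genes, and limma-voom passed 0 in both.

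**Figure D5:**
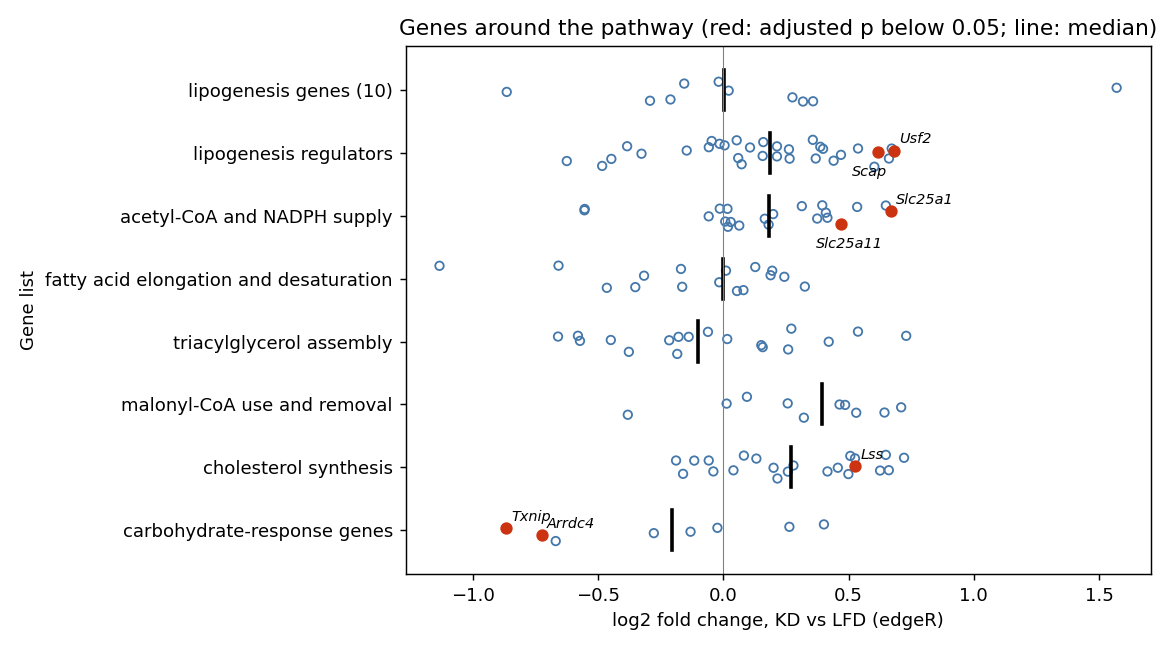
log2 fold change in KD against LFD (x axis) of each tested gene of the 10 members and of the 7 surrounding lists (y axis), with red for an adjusted p below 0.05 and a black line at each list's median. The members hold no red point and their median is at 0.00, and the 7 red points are Usf2, Scap, Slc25a1, Slc25a11, Lss, Txnip and Arrdc4.

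The genes whose levels ran closest to a member were taken from 10395 genes over the 9 libraries, by Pearson's r of log2 CPM and as a description only, since all points share the libraries and their acinar content. For Fasn they were Csnk1d (r = 0.992), Zdhhc5 (0.975), Hnrnpa0 (0.968) and Hif1an (0.967). Fasn and Csnk1d both lie on chromosome 11, with 2 protein-coding genes between them in the RefSeq order. For Srebf1 they were Isca1 (0.977), Med26 (0.977), Cox4i1 (0.960), Igdcc4 (0.960) and Rundc1 (0.959). For Scd1 they were Coq10b (0.913), Mcmbp (0.909), Sik1 (0.908), Ighv11-2 (0.907) and Etv3 (0.907). Among the members themselves the strongest pairs were Acacb with Thrsp (r = -0.908) and with Elovl6 (-0.887) and Elovl6 with Thrsp (0.874), all 3 genes being ones that followed the acinar score.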

How the data were processed

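RNA from islets of mice on LFD (3 libraries), HFD (2) and KD (4) was sequenced as stranded poly(A) libraries, per the labels' protocols. The authors deposited a table of raw whole-number counts per Ensembl gene, not normalized. The submitters' processing notes name cutadapt 1.16, STAR 2.7.9a, featureCounts 1.6.3, DESeq2 1.40.2 and GRCm39/mm39. The annotation release, the strand setting and the treatment of multimapping reads are not given in the sources used here. Symbols were matched for 51948 of 56941 IDs.

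Counts were analysed in R 4.3.3 with edgeR 4.0.16 (TMM, filterByExpr, robust quasi-likelihood test, 1 mean per diet, no covariate), with limma 3.58.1 and DESeq2 1.42.0 as alternatives, and the code was tested on simulated data. Totals of 15513502 to 26588390 counts a library set the precision. Log2 CPM used a prior count of 2 and within-library ratios a pseudocount of 0.5 counts. The members and gene lists were chosen with earlier results of these data known. All members are named in every comparison. From each pathway list, genes with an adjusted p below 0.05 are named, at most 4 per list and comparison, and for Fasn, Srebf1 and the member with the lowest p the 5 genes most correlated with it, of which 1 is not reported here. Alternatives changed the scaling, filter, acinar covariate, replicate block, samples and tool.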

Additional observations from a re-analysis of the deposited data

Results flagged for a closer look

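Srebf1 in KD replicate 1 stood at 98.0 CPM, and its gap to the nearest KD library was 0.909 of the range of the 4 KD libraries, above Dixon's 95% critical value for 4 samples. Scd1 in KD replicate 3 stood at 36.5 CPM, with a gap of 0.839 of the range. Dixon's test was run on 13 groups of 4 libraries, and 2 values passed it. Chance gives about 1 in 20 groups.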

How the results depend on the processing

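Of 540 member log2 fold changes under alternatives, 488 kept their direction and side of the threshold, 16 passed it and 36 changed sign. Members passing in KD against LFD numbered 0 in the design as set. The count was 1 with the acinar covariate (Acly), 1 with limma-voom (Scd1), 2 with DESeq2 (Acacb, Scd1) and 0 to 1 with a library left out. With a library left out, 151 to 1348 of all tested genes passed, beside 764 in the design as set. In KD against HFD the member count was 2 with DESeq2 (Fasn, Acacb) and 0 to 3 with a library left out. The 3 came without KD replicate 4, where 1793 of all tested genes passed, beside 0 in the design as set. In HFD against LFD the member count was 0 throughout. The causes were not tested. Whether the replicate numbers pair the libraries could not be settled. With each diet's mean taken out, 1 of 7 same-number pairs had r over 0.1 (range -0.02 to 0.22). Not every library correlated best with its own number. The deviations of the 2 HFD libraries mirror each other, so the HFD pairs tell little. The replicate block gave 1 member (Acacb) in KD against LFD, 0 in HFD against LFD and 4 (Fasn, Acacb, Scd2, Elovl6) in KD against HFD. There 10.8%, 2.13% and 12.5% of all tested genes passed. Only KD replicate 4 bears the number 4, so its block term takes it out of the diet comparison. The block fit and the fit without KD replicate 4 are therefore not separate checks.

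Among all tested genes, KD against LFD counts ran from 151 to 2003 beside 764, HFD against LFD from 0 to 395 and KD against HFD from 0 to 2320. No scaling moved the median by over 0.1.

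These signs changed, some from values near 0 and some, with the acinar covariate, from larger ones (Acacb -0.60 in HFD against LFD, Elovl6 -0.55 in KD against HFD). In KD against LFD, Scd2 was -0.035 with the 5 CPM filter and ranged from -0.11 to 0.15 with a library left out. With the acinar covariate Acaca was 0.0084, Scd2 -0.24, Elovl6 0.17 and Thrsp 0.055. Acaca was 0.020 with the replicate block, 0.079 with limma-voom and -0.11 to 0.10 with a library left out. In HFD against LFD, the acinar covariate gave Acacb 0.11 and Acly -0.0047, and Me1 was 0.033 with limma-voom and -0.14 to 0.10 with a library left out. In KD against HFD, Scd1 was 0.025 with DESeq2 size factors, 0.00016 with TMM without acinar and hormone genes and 0.0035 with no filter, 0.18 with the replicate block, 0.016 with only the 2 diets, 0.027 with the DESeq2 test, 0.054 with limma-voom and -0.37 to 0.52 with a library left out. The acinar covariate gave Elovl6 0.12 and Me1 0.057, and Acly was -0.11 with the replicate block and -0.17 to 0.34 with a library left out. The KD minus LFD differences of the within-library ratios kept their sign with a library left out. Scd1 to Scd2 ran from -1.07 to -0.52, Acaca to Acacb from -1.80 to -0.98 and Elovl6 to Fasn from -0.68 to -0.30. No p-value was computed for the ratios with a library left out. Depth limits Thrsp most, at 25 counts in KD replicate 1.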
